A study of Mus musculus with 42 samples.

Results

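The lowest concentration of acetophenone (ACT), a sweet-smelling aromatic ketone, was compared with no odor in the mouse olfactory epithelium. The comparison used 6 of the 42 libraries of the series, 3 from mice exposed to 0.01% ACT (v/v) and 3 from mice given no odor, over all 1088 intact odorant receptor (OR) genes of the deposited table. Members were taken as the table lists them, with no choice by measured value. The mice were of the C57BL/6 strain by the labels (C57BL/6J by the study's methods), at postnatal day 20 to 22, with no transgene or mutation named. The odor was presented for 1 h, and each numbered litter gave 1 mouse to each group, littermates of the same sex. The labels do not give the sex of a litter, so litter and sex cannot be told apart. The third mouse of each litter received 0.1% ACT, and those 3 libraries share the no odor libraries of this comparison.

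Each olfactory sensory neuron (OSN) transcribes 1 OR gene, so the OR messenger RNAs of the epithelium are a tally of its neuron types. When an OSN fires, the ribosomal protein S6 in its ribosomes becomes phosphorylated. In pS6-IP-Seq an antibody to phosphorylated S6 pulls down ribosomes with their RNA, so that an OR expressed in activated neurons is over-represented in the captured RNA. More activated neurons and more captured RNA per neuron cannot be told apart in such bulk samples. ORs are grouped into class I, mostly of a single large cluster on chromosome 7, and class II, and an OSN's position along the dorsal to ventral axis of the epithelium goes with the OR it expresses.

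The libraries held 76085, 102102 and 80516 counts on ORs without odor and 110280, 128805 and 62877 with 0.01% ACT, in the order of litters 1 to 3. A normalized count is a count divided by its library's effective size (trimmed mean of M values, TMM) and set to a common scale over the 9 libraries of these litters. The tables list ORs only: 0 of 16 markers of OSNs, other epithelial cells, blood and neuronal activity were in them, so the labelled tissue could not be checked against its markers here.

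One library stood apart. Over the 793 ORs with a mean normalized count of at least 20, the log2 levels of the 0.01% ACT library of litter 1 had Pearson correlations of 0.618 to 0.672 with the other 5 libraries, whereas those 5 had 0.849 to 0.921 among themselves (across ORs, which are not replicates). Its 50 most abundant ORs held 42.2% of its OR counts, against 29.9% to 34.1% in the other 5 libraries. Its TMM factor was 0.711, and those of the other 5 were 1.02 to 1.17. The values of the ORs described in most detail are therefore given by litter, with fits that leave out litter 1.

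With all 3 litters, edgeR's quasi-likelihood fit with Benjamini-Hochberg adjustment called no OR in either direction (0 of 1088, 0%; n = 3 mice per group, litter as a block). The smallest adjusted p was 0.576, for Olfr983. At an unadjusted p below 0.05 there were 18 ORs with higher and 10 with lower counts at 0.01% ACT, which is 1.65% and 0.919% of the 1088 tested. edgeR's likelihood ratio test called 3 ORs higher (Olfr923, Olfr983 and Olfr1160), DESeq2 called 2 (Olfr923 and Olfr983) and limma's voom with quality weights called 0. None of these called an OR lower. Leaving out litter 1 gave 4 ORs called higher by the quasi-likelihood test, Olfr923, Olfr983, Olfr901 and Olfr1377, and 0 lower. Without litter 2 or without litter 3 it called 0. With litter 1 left out of a joint fit with the 0.1% ACT mice it also called 0 (smallest adjusted p = 0.661, for Olfr923), so the calls on 2 litters depended on which libraries entered the fit.

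Olfr923 is a class II OR on chromosome 9 (38826545 to 38830300, plus strand, GRCm38) for which the study made a knock-in line. Its normalized counts were 84.3, 117 and 163 without odor and 1861, 970 and 578 with 0.01% ACT in litters 1, 2 and 3. Every exposed mouse was above every control mouse, and the order of the litters was opposite in the 2 groups. The log2 changes from the littermate were 4.45, 3.04 and 1.82. The fitted log2 fold change was 3.10 with an SE of 0.56 (edgeR quasi-likelihood, adjusted p = 0.654). Among the 793 ORs this change ranked 5 in litter 1, 1 in litter 2 and 8 in litter 3. Without litter 1 the fold change was 2.44 on the log2 scale with an adjusted p of 1.48e-08 from 2 mice per group, without litter 2 it was 3.10 with an adjusted p of 1, and without litter 3 it was 3.75 with an adjusted p of 0.986. None of the 50-base stretches of its transcripts occurred in another OR's transcripts. Genes other than ORs and near-identical stretches were not searched.

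Olfr983, a second OR of the same chromosome 9 cluster (40086908 to 40093595, minus strand), was higher by a similar factor in litters 2 and 3 and by more in litter 1. Its normalized counts were 58.6, 93.3 and 76.2 without odor and 352, 321 and 253 with 0.01% ACT. The groups did not overlap, and the exposed mice spanned a narrow range, 309 ± 51.1 (mean and SD, n = 3) against 76.1 ± 17.3. The log2 changes of the 3 litters were 2.57, 1.77 and 1.72. The fitted log2 fold change was 2.02 with an SE of 0.32 (edgeR quasi-likelihood, unadjusted p = 0.00053). Without litter 1 it was 1.75 with an adjusted p of 3.89e-05. Olfr983 ranked 60 in litter 1, where many ORs were high, and 4 and 9 in litters 2 and 3.

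Olfr901 lies in the same cluster (38429455 to 38432682, plus strand). Its normalized counts were 92.8, 131 and 53.2 without odor and 185, 294 and 298 with 0.01% ACT. The groups did not overlap, and the change was smallest in litter 1 and largest in litter 3, with log2 values of 0.99, 1.16 and 2.46. The fitted log2 fold change of Olfr901 was 1.53 with an SE of 0.39 (edgeR quasi-likelihood, unadjusted p = 0.00616, adjusted p = 1). Without litter 1 its log2 fold change was 1.76 with an adjusted p of 8.99e-05.

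Olfr1377, on chromosome 11 in a cluster of 4 ORs, was called without litter 1 and went the other way in litter 1. Its normalized counts were 95.3, 86.9 and 55.3 without odor and 52.5, 202 and 148 with 0.01% ACT. The exposed mouse of litter 1 was below all 3 control mice, whereas those of litters 2 and 3 were above all of them. The log2 changes of Olfr1377 were -0.85, 1.21 and 1.40. The fit over 3 litters gave 0.64 with an SE of 0.51 (edgeR, unadjusted p = 0.259), and that over litters 2 and 3 gave 1.31 with an adjusted p of 0.0109. Without litter 1, DESeq2 gave Olfr1377 an adjusted p of 0.576 and the joint fit with the 0.1% ACT mice 0.727, so its call was not kept there. In the 0.1% ACT mouse of litter 1, Olfr1377 stood at 608. It shares 11.0% of its 50-base stretches with other ORs, mostly a pseudogene.

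**Figure D1:**
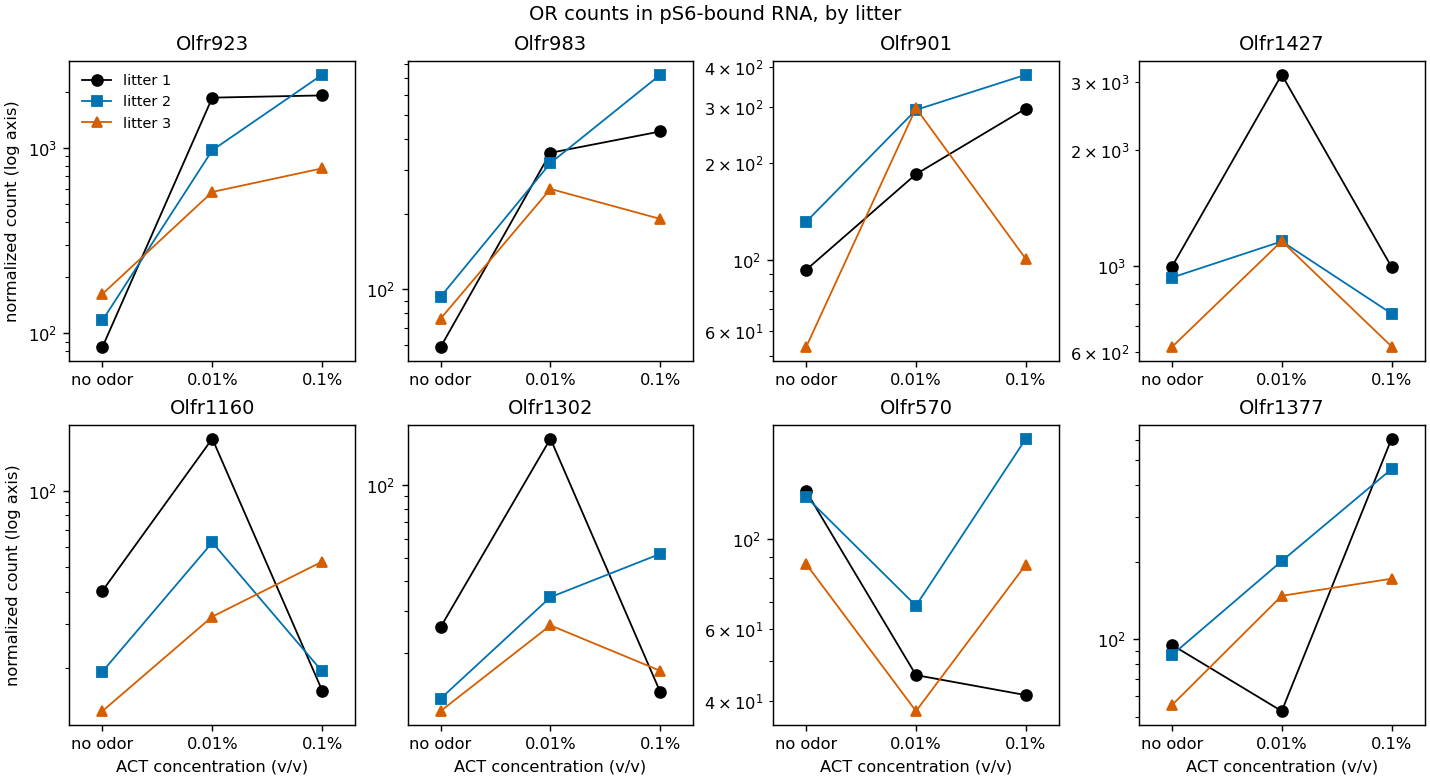
Normalized counts of 8 ORs in pS6-bound RNA on log axes, at no odor, 0.01% and 0.1% ACT, with 1 line per litter joining its 3 mice. Olfr923 and Olfr983 are higher at 0.01% ACT than at no odor in every litter, while Olfr1377 is lower in litter 1 (52.5 against 95.3).

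Olfr1427, a class II OR of chromosome 19 that is among the 5 most abundant ORs of the control mice, had normalized counts of 996, 934 and 617 without odor and 3132, 1159 and 1161 with 0.01% ACT. All 3 exposed mice were above all control mice, and litter 1 had by far the highest level. The log2 changes were 1.65, 0.31 and 0.91. The fitted log2 fold change of Olfr1427 was 0.96 with an SE of 0.35 (edgeR quasi-likelihood, unadjusted p = 0.0295), and without litter 1 it was 0.61 (adjusted p = 0.776).

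A change of at least 2-fold in the same direction in every litter was rare. Of the 793 ORs with a mean normalized count of at least 20, 117 (14.8%) were higher and 86 (10.8%) lower at 0.01% ACT in all 3 litters. Only 4 (0.504%) were at least 2-fold higher in each, namely Olfr923, Olfr983, Olfr1160 and Olfr1302, and only Olfr341 (1 OR, 0.126%) was at least 2-fold lower in each. Counted over all 1088 ORs, 57 (5.24%) had every exposed mouse above every control mouse and 38 (3.49%) had the reverse.

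Olfr1160, on chromosome 2 (88000927 to 88008268), had normalized counts of 40.3, 19.4 and 13.6 without odor and 160, 62.5 and 31.9 with 0.01% ACT. The groups overlapped, since the exposed mouse of litter 3 was below the control mouse of litter 1, although each litter was higher by itself, by 1.96, 1.64 and 1.18 on the log2 scale. For Olfr1160 the fitted log2 fold change was 1.66 with an SE of 0.35 (edgeR quasi-likelihood, adjusted p = 0.869). Olfr1302, on another part of chromosome 2, had normalized counts of 25.7, 12.9 and 11.5 without odor and 156, 34.2 and 26.1 with 0.01% ACT. Its exposed mice were all above its control mice, by a small margin in litter 3, and the fitted log2 fold change was 1.78 with an SE of 0.44 (edgeR quasi-likelihood, unadjusted p = 0.00571).

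A pair of the other higher ORs of small p rested on few counts. Olfr312 had 0, 2 and 2 counts without odor and 12, 16 and 7 with 0.01% ACT, and its fitted log2 fold change of 3.08 had an SE of 1.01. Olfr1469 had 7, 3 and 11 counts without odor and 60, 14 and 12 with 0.01% ACT, with a fitted log2 fold change of 1.88 and an SE of 0.65. At such depth the size of these changes is not well determined. The other 4 of the 12 higher ORs of smallest p, Olfr736, Olfr353, Olfr1535 and Olfr111, had fitted log2 fold changes of 1.15, 1.41, 0.87 and 0.99, and the groups of Olfr353 and Olfr1535 overlapped. Their log2 changes by litter ran from 0.42 to 1.54, from 0.78 to 2.47, from 0.64 to 1.18 and from 0.40 to 1.66. Of the transcripts of Olfr111, 20.9% of the 50-base stretches were shared with other ORs, mostly Olfr110, so its counts are uncertain.

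The lower OR of smallest p was Olfr570, a class I OR of chromosome 7 (102894577 to 102901710, plus strand). Its normalized counts were 131, 127 and 86.7 without odor and 46.2, 68.5 and 37.7 with 0.01% ACT. The groups did not overlap, and the log2 changes by litter were -1.48, -0.88 and -1.18. For Olfr570 the fitted log2 fold change was -1.19 with an SE of 0.31 (edgeR quasi-likelihood, unadjusted p = 0.00748, adjusted p = 1). In the 0.1% ACT mice Olfr570 stood at 41.3, 176 and 86.3, so the mouse of litter 1 was again low and those of litters 2 and 3 were not.

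Olfr341 had normalized counts of 40.3, 42.5 and 76.2 without odor and 13.7, 19.3 and 34.8 with 0.01% ACT, a fitted log2 fold change of -1.25 with an SE of 0.37 (edgeR quasi-likelihood, unadjusted p = 0.0124). Olfr1323, on chromosome X, had 43.98, 36.04 and 38.63 against 17.5, 17.9 and 21.8 and a fitted log2 fold change of -1.05. The groups overlapped for neither OR. The other 5 of the 8 lower ORs of smallest p, Olfr92, Olfr1309, Olfr822, Olfr134 and Olfr48, had fitted log2 fold changes of -1.38, -2.03, -1.99, -1.44 and -1.30. Their log2 changes by litter ran from -2.18 to -0.90, from -1.95 to -1.69, from -2.90 to -1.16, from -1.66 to -0.81 and from -2.38 to -0.19. Olfr1309 had 15, 15 and 35 counts without odor and 4, 4 and 6 with 0.01% ACT. Olfr822 had 9, 25 and 23 against 3, 3 and 7, and Olfr134 had 24, 20 and 24 against 13, 7 and 5. The size of the changes of Olfr1309, Olfr822 and Olfr134 is not well determined at such depth. Olfr92 shares 30.7% of its 50-base stretches with other ORs, mostly a pseudogene, and is uncertain.

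The spread of the changes differed between litters. Over the 793 ORs the log2 changes from the littermate had an SD of 1.31 in litter 1, 0.535 in litter 2 and 0.658 in litter 3, with medians of 0.01, 0.02 and 0.04. At least 4-fold higher were 94 ORs in litter 1, 3 in litter 2 and 5 in litter 3. At least 4-fold lower were 12, 0 and 3. The changes of litter 1 had a Pearson correlation of 0.104 with those of litter 2 and of -0.154 with those of litter 3, and litters 2 and 3 had 0.060, across ORs.

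**Figure D2:**
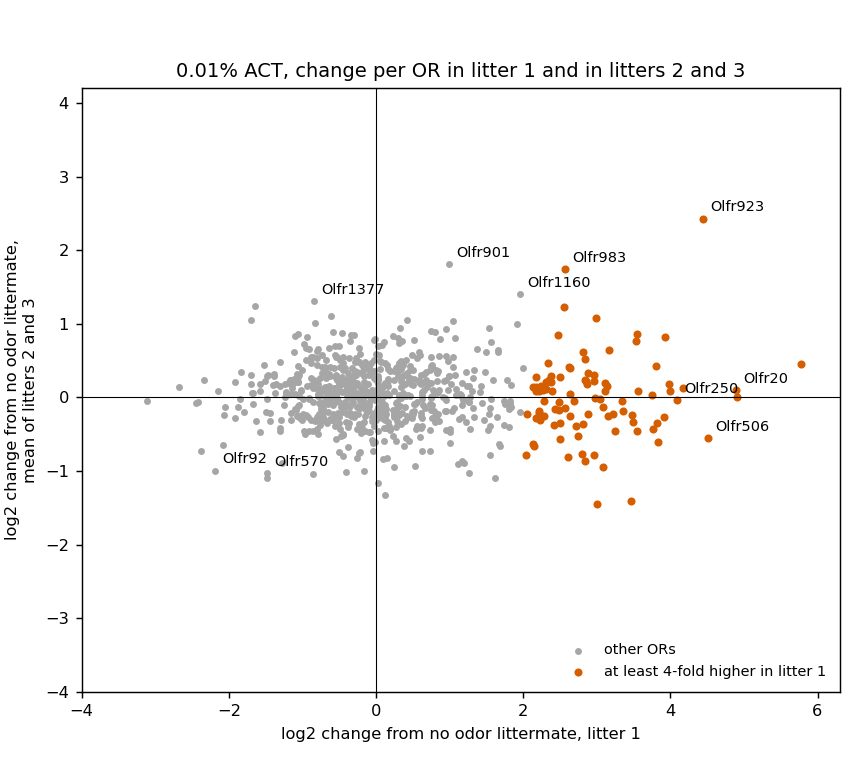
Log2 change from the no odor littermate at 0.01% ACT for 793 ORs, litter 1 on the horizontal axis and the mean of litters 2 and 3 on the vertical axis. The 94 ORs at least 4-fold higher in litter 1 (orange) lie around 0 on the vertical axis, apart from Olfr923, Olfr983 and a few others.

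The filter on low counts included the litter 1 library itself, so that an OR could pass it by being high there. With the filter on the 3 no odor libraries alone, 79 of 785 ORs were at least 4-fold higher in litter 1, against 3 in litter 2 and 4 in litter 3. Compared with the 0.1% ACT littermate instead of the no odor littermate, the litter 1 library again had 84 ORs at least 4-fold higher, against 3 in litter 2 and 1 in litter 3. That littermate was exposed to odor itself and is no control.

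The 10 ORs with the largest excess in litter 1 were chosen for it, so their values are a description. They were taken among ORs with a mean normalized count of at least 50 over the 6 libraries. That mean includes the litter 1 library, so an OR could pass by being high there. Olfr160, Olfr895, Olfr1054, Olfr201, Olfr20 and Olfr881 had no odor means below 50, from 21.7 to 41.1. Olfr506, on chromosome 7, had normalized counts of 54.975, 51.7 and 85.6 without odor and 1279, 49.9 and 40.6 with 0.01% ACT. Olfr250, on chromosome 9, had 72.1, 88.7 and 67.9 without odor and 1247, 75.2 and 75.5 with 0.01% ACT. Both were over 10-fold higher in the exposed mouse of litter 1, while in the other 2 exposed mice Olfr250 was within its control range and Olfr506 was below it. In litter 1 the log2 changes of the 10 were 4.51 (Olfr506), 4.89 (Olfr20), 3.84 (Olfr201), 3.77 (Olfr1101), 3.92 (Olfr881), 3.81 (Olfr1054), 4.09 (Olfr250), 4.17 (Olfr895), 3.55 (Olfr1477) and 3.50 (Olfr160). In litters 2 and 3 none of the 10 reached 1, and their lowest value was -1.50. They lie in 6 clusters on 6 chromosomes, and 8 of the 10 were dorsal and 2 ventral by the zone libraries of the series. Olfr160, Olfr881, Olfr250 and Olfr895 share the chromosome 9 cluster of Olfr923, which has 95 of the 1082 placed ORs. The largest log2 changes in litter 1 among the 793 ORs were those of Olfr888 (5.78) and Olfr51 (4.90), which are not among these 10. Of the 79 ORs that passed the filter on the no odor libraries, 32 (40.5%) were dorsal and 43 (54.4%) ventral, against 36.4% and 60.6% of the 785. The 5 ORs with the largest deficit in litter 1 were Olfr362, Olfr1283, Olfr1377, Olfr716 and Olfr479, with log2 changes there of -2.15, -1.83, -0.85, -1.71 and -1.52.

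Other odor libraries of the series, which were not used to choose the 94 ORs, gave values for them. In the 0.1% ACT mice of the same litters the 94 ORs had median log2 changes of 0.19, -0.07 and 0.08, with the same no odor mice as controls, that of litter 1 having also served to choose the 94. At least 2-fold higher there were 17.0%, 12.8% and 8.51% of the 94, against 5.93%, 4.92% and 3.53% of the 793 ORs. At 1% ACT, with other no odor mice as controls, they had 0.30, 0.21 and 0.22, and 25.5%, 14.9% and 27.7% were at least 2-fold higher, against 8.20%, 6.18% and 8.58%. At 100% ACT, with those same 1% ACT controls, they had 1.14, 0.60 and 1.64, and 53.2%, 27.7% and 63.8% of the 94 were at least 2-fold higher, against 14.0%, 12.5% and 19.2% of the 793 ORs. The share of the 94 at least 2-fold higher was thus above that of the 793 at all 3 of these concentrations. The mice at 1% and 100% ACT were not those of litters 1 to 3 here. The values are therefore no series within a litter. Each of the medians at 100% ACT was above every median at 0.1% and 1% ACT. The 79 ORs that passed the filter on the no odor libraries had medians of 0.22, -0.08 and 0.03 at 0.1% ACT and of 1.07, 0.56 and 1.56 at 100% ACT, where 53.2%, 26.6% and 62.0% were at least 2-fold higher, against 13.4%, 12.5% and 18.1% of the 785.

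Values were also available for a second odorant, the trimethylthiazoline TMT, a component of fox odor. At 0.01% and 0.1% TMT the medians of the 94 ORs were 0.04 to 0.24, and at 1% TMT 0.12 to 0.34. At least 2-fold higher were 11.7%, 13.8% and 11.7% of the 94 at 0.01% TMT, against 5.93%, 7.44% and 5.55% of the 793. At 0.1% TMT these shares were 14.9%, 13.8% and 16.0%, against 6.56%, 6.68% and 6.56%. At 1% TMT they were 24.5%, 27.7% and 35.1%, against 9.84%, 8.70% and 12.1%. At 100% TMT the medians were 1.14, 1.47 and 1.62, with 52.1%, 61.7% and 67.0% of the 94 at least 2-fold higher, against 15.3%, 17.2% and 21.8% of the 793. The share of the 94 was thus above that of the 793 at every TMT concentration as well. The 79 ORs had medians of 1.15, 1.45 and 1.68 at 100% TMT. The 90 ORs at least 2-fold lower in litter 1 had medians of -0.21, 0.03 and -0.23 at 100% ACT and of -0.40, -0.18 and -0.54 at 100% TMT. Whether the pattern of litter 1 and that of the undiluted odors have anything in common beyond these values was not tested.

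**Figure D3:**
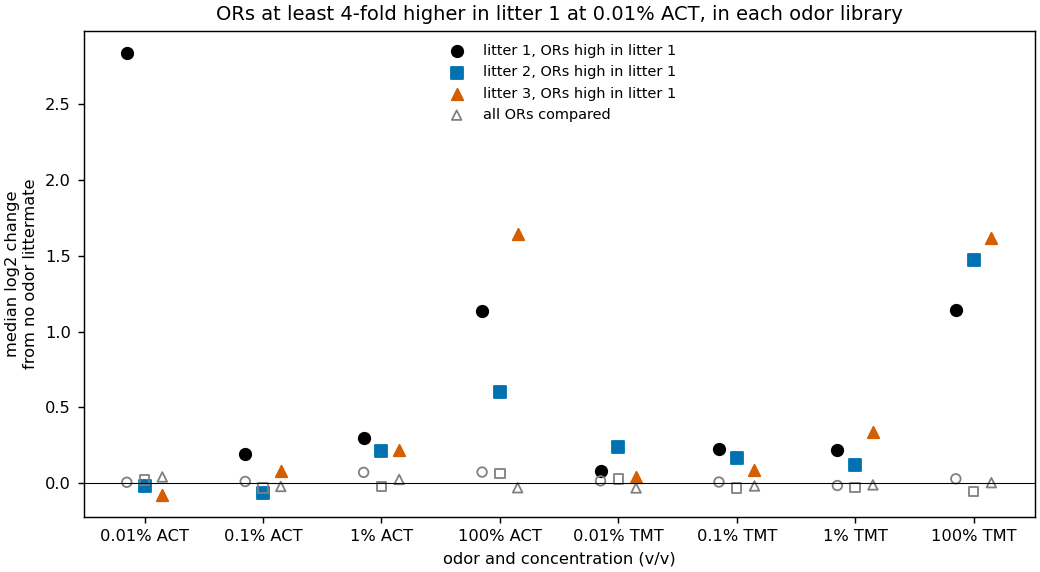
Median log2 change from the no odor littermate of the 94 ORs at least 4-fold higher in litter 1 at 0.01% ACT (filled), and of all 793 ORs compared (open), in each of the 3 mice of every odor and concentration. Litter numbers are those of this comparison at 0.01% and 0.1% ACT only, and stand for other mice elsewhere. The filled points lie between 0.60 and 1.64 at 100% ACT and between 1.14 and 1.62 at 100% TMT, and between -0.08 and 0.34 at lower concentrations, apart from litter 1 at 0.01% ACT, where they were selected.

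The ORs that respond to ACT in other assays were described by litter. Of 516 ORs with values from a cell-based luciferase assay in the study's supplementary table, 106 were above the study's threshold for activation by ACT. That threshold was set at the highest concentration given to the cells. None passed edgeR's test here, and 4 of the 106 were higher (3.77%, against 1.65% of all ORs) and 0 lower at an unadjusted p below 0.05. Their median fitted log2 fold change was 0.32, against 0 for the 410 tested ORs that were not activated and 0.02 for all 1088. Of the 93 activated ORs with a mean normalized count of at least 20, the median log2 change was 0.83 in litter 1 and 0.03 and 0.11 in litters 2 and 3. That filter, used for the lists below as well, includes the litter 1 library, so an OR could pass it by being high there. In litter 1, 45.2% of them were at least 2-fold higher, against 21.3% of all 793 ORs. In litter 2 these shares were 6.45% and 4.41%, and in litter 3 they were 5.38% and 4.92%.

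An earlier pS6-IP-Seq study of ACT (Jiang et al.) gave 86 ORs. Their median fitted log2 fold change was 0.43, with 5 higher (5.81%, against 1.65% of all ORs) and 0 lower at an unadjusted p below 0.05. For the 76 with a mean normalized count of at least 20, the medians were 1.43 in litter 1, -0.01 in litter 2 and -0.21 in litter 3. At least 4-fold higher in litter 1 were 31 of the 76 (40.8%, against 11.9% of all 793). In each of the other litters it was 1 (1.32%, against 0.378% of all 793 in litter 2 and 0.631% in litter 3). The DREAM assay uses the loss of mRNA of activated ORs after odor exposure, here to a higher concentration than 0.01% ACT. The 44 ORs in the study's supplementary list of ACT ORs from that assay had a median fitted log2 fold change of 0.36, with 4 higher (9.09%, against 1.65% of all ORs) and 0 lower at an unadjusted p below 0.05. The 40 of them above the filter had medians of 1.10, 0.37 and 0.11 in litters 1, 2 and 3. In litter 2, 8 of these 40 (20%) were at least 2-fold higher, against 4.41% of all 793. In litter 3, 5 (12.5%) were at least 2-fold higher and 4 (10%) at least 2-fold lower, against 4.92% and 4.54% of all 793. In each of these 3 lists the median was highest in litter 1.

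**Figure D4:**
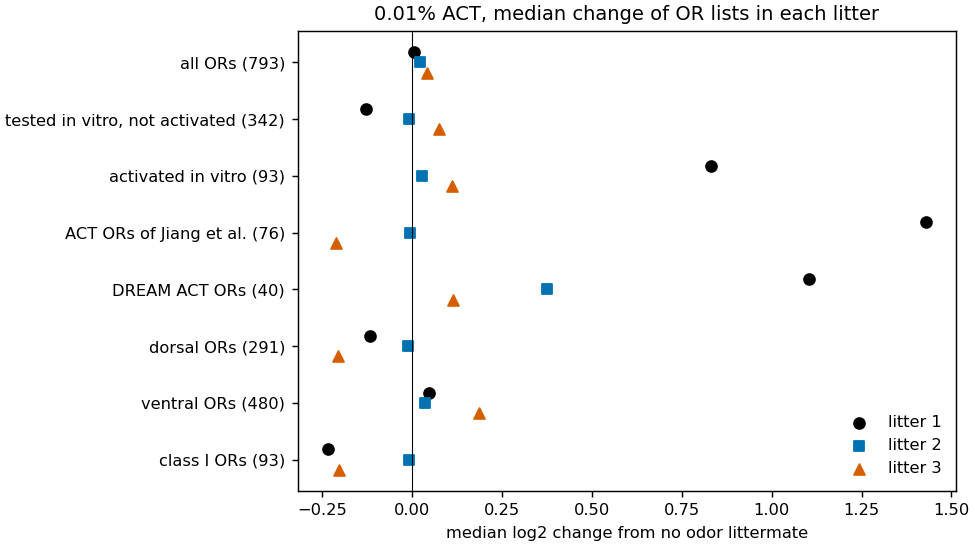
Median log2 change from the no odor littermate at 0.01% ACT for lists of ORs, with 1 point per litter and the number of ORs above the filter in brackets. The lists of ORs that respond to ACT in other assays, at other doses, lie at 0.83 to 1.43 in litter 1 and at -0.21 to 0.37 in litters 2 and 3. The filter included the litter 1 library.

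Among the 8 ORs that the study names for ACT at any concentration, which it chose in part on these samples, all 8 had a positive fitted log2 fold change, with a median of 1.46. Besides Olfr923, Olfr983, Olfr901 and Olfr1427, these were Olfr30, Olfr376, Olfr898 and Olfr907. The study names these last for higher concentrations and reports no significant enrichment of them at 0.01% ACT. Olfr30 had normalized counts of 442, 489 and 321 without odor and 2154, 356 and 306 with 0.01% ACT. Olfr376 had 154, 124 and 193 without odor and 1374, 164 and 103 with 0.01% ACT. Both were high in litter 1, within the control range in litter 2 and below it in litter 3. Olfr898 and Olfr907 were at 149 and 25 in the exposed mouse of litter 1 and at most at 10.2 and 1.49 in the other 2. Their fitted log2 fold changes of 0.55, 0.83, 1.38 and 1.61 therefore rested on litter 1, and without it the values were -0.27 for Olfr30, -0.22 for Olfr376, 0.20 for Olfr898 and -0.94 for Olfr907.

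The receptors longest known to bind ACT are M71 (Olfr151), M72 (Olfr160) and Olfr145, of the same chromosome 9 cluster. Olfr145 had normalized counts of 177, 112 and 175 without odor and 366, 249 and 168 with 0.01% ACT. Litters 1 and 2 were higher, by 1.04 and 1.15 on the log2 scale, and litter 3 was not, at -0.06. The fitted log2 fold change was 0.72 with an SE of 0.35 (edgeR quasi-likelihood, unadjusted p = 0.0804). Olfr160 had 18.3, 18.5 and 28.2 without odor and 217, 24.6 and 13.1 with 0.01% ACT, so that the high value was that of litter 1. Olfr151 had 0 counts in all 6 libraries. It shares 32.9% of its 50-base stretches with other ORs, mostly Olfr160, and the authors changed its annotation, so the 2 entries are uncertain.

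The chromosome 9 cluster that holds Olfr923 has 95 of the placed ORs. Of them, 4 were higher and 0 lower at an unadjusted p below 0.05 (4.21% against 1.65% of all ORs), Olfr923, Olfr983, Olfr901 and Olfr889. The median fitted log2 fold change of the cluster was 0.09. Its ORs held 3.31%, 3.21% and 4.13% of the OR counts without odor and 7.33%, 4.80% and 4.45% with 0.01% ACT, so the share was higher in every litter. Without Olfr923 the other ORs of the cluster held 3.22%, 3.08% and 3.93% without odor and 5.98%, 3.79% and 3.81% with 0.01% ACT, and litter 3 was then no higher. Its ORs were not of a single zone: Olfr923 was dorsal, with a log2 ratio of dorsal to ventral counts of 3.78, while Olfr983 and Olfr901 were ventral, with -1.20 and -1.23.

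By zone, an OR was called dorsal where its lowest count in the 3 dorsal libraries exceeded its highest in the 3 ventral libraries (410 ORs, 37.7% of 1087), and ventral in the reverse case (592 ORs, 54.5%). The dorsal ORs had a median fitted log2 fold change of -0.05 and the ventral ORs of 0.09. At an unadjusted p below 0.05, 5 dorsal (1.22%) and 13 ventral (2.20%) ORs were higher, against 1.65% of all ORs, and 5 dorsal and 4 ventral ORs were lower. Dorsal ORs held 26.5%, 24.7% and 29.2% of the counts without odor and 30.5%, 24.6% and 24.5% with 0.01% ACT, so that the dorsal share was higher in litter 1 and lower in litter 3. The 125 class I ORs of the table had a median fitted log2 fold change of -0.16. At an unadjusted p below 0.05, 1 was higher and 1 lower (0.8% each, against 1.65% and 0.919% of all ORs). Class I ORs held 11.0%, 9.77% and 11.7% of the counts without odor and 6.64%, 9.28% and 9.47% with 0.01% ACT, a lower share in every litter. Such shares move with the rest of the library and are no measure of a single OR.

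The 0.1% ACT mice of the same litters were compared with the 0.01% ACT mice directly, in 1 fit of 9 libraries. No OR passed the test (0 of 1088, 0%, in either direction; edgeR quasi-likelihood, smallest adjusted p = 0.883). At an unadjusted p below 0.05, 23 of the 1088 ORs were higher and 27 of the 1088 lower at 0.1% ACT. DESeq2 called 0 higher and 1 lower, Olfr773, whose normalized counts were 0, 0 and 4.35 at 0.01% ACT and 0 in all 3 mice at 0.1% ACT. At 0.1% ACT, Olfr923 stood at 1913, 2474 and 774. It was higher than at 0.01% ACT in every litter, and the log2 difference was 0.60 with an SE of 0.50 (adjusted p = 0.892). Olfr983 stood at 429, 725 and 191, above the 0.01% ACT littermate in litters 1 and 2 and below it in litter 3, with a log2 difference of 0.40 and an SE of 0.37. Olfr901 differed by -0.19 with an SE of 0.42, and Olfr145, at 778, 825 and 258, by 1.22 with an SE of 0.40 (adjusted p = 0.883). For Olfr1427 the difference was -1.09 with an SE of 0.31: its counts at 0.1% ACT, 995, 754 and 619, were near those without odor.

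No call was made among the ORs most abundant without odor. Olfr140, the highest, had normalized counts of 2412, 2676 and 2417 without odor and 4867, 2836 and 2910 with 0.01% ACT, so that the exposed mice were above the control mice, with a fitted log2 fold change of 0.45 and an SE of 0.31 (edgeR, unadjusted p = 0.185). Olfr536, Olfr15 and Olfr743 had fitted log2 fold changes of -0.07, 0.05 and 0.17, with overlapping groups. Together with Olfr1427 these are the 5 ORs of highest mean count in the control mice.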

How the data were processed

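RNA bound to phosphorylated S6 was sequenced in 50-base reads. The authors mapped reads with STAR to GRCm38, with ORs annotated to include their UTRs, and deposited RSEM expected counts rounded to whole numbers, 1 column per library. The deposited tables also hold the authors' log fold changes, p-values and mean signals, which were not used. The no odor columns were matched to samples by title through the authors' R code. For 1 library of 0.1% TMT, a file named in its label says 1%, and its odor label was followed.

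Counts on the 1088 intact ORs were tested with edgeR 4.0.16 (R 4.3.3; TMM, glmQLFit robust, glmQLFTest), litter as a block, no filter on low counts, and Benjamini-Hochberg adjustment over all 1088 ORs, at an adjusted p below 0.05. ORs with no count got a p of 1. The SE is the log2 fold change divided by the square root of F, so it restates the test. DESeq2 1.42.0 and limma 3.58.1 were alternatives. The fitting was checked on simulated counts that held no outlying library. It recovered 12%, 84% and 100% of 2-fold, 4-fold and 8-fold increases, and 8 of 149 calls were false. Those shares do not apply where a library stands apart, as that of litter 1 does. With 3 litters the fit has 2 residual degrees of freedom, and a median of 6.56 in total after variance is shared over ORs. A fit that leaves out a litter has fewer residual degrees of freedom. With litter as a block, p-values measure the spread of the change across these litters. Counts per library ran from 62877 to 128805. Pairing by litter comes from the study's methods. The deviations of littermates from their group means correlated at -0.094, 0.159 and -0.019 across ORs.

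Changes per litter are log2 ratios of normalized counts with a pseudocount of 1. High concentrations and TMT libraries were scaled in their own sets. Coordinates are from GENCODE M21, which places 1082 ORs uniquely; clusters are ORs under 1 Mb apart. The share of 50-base stretches was counted over OR transcripts of that release. Shares not given above were 25.6% for Olfr1283, 19.2% for Olfr1477, 18.3% for Olfr312 and 13.8% for Olfr20. The counts of these ORs are uncertain too, and smaller shares of other ORs are not listed.

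Members and lists were chosen with earlier results of these data known. ORs named are those the paper names for ACT, the known ACT receptors, the 12 higher and 8 lower ORs of smallest p, the 10 and 5 that differed most in litter 1 (mean normalized count of at least 50), the 5 most abundant, and those at least 2-fold higher in every litter. Others were named after their values were seen.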

Additional observations from a re-analysis of the deposited data

How the results depend on the processing

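With all 3 litters the count of ORs called higher at 0.01% ACT was 0, and it was 0 under size factors of the RLE kind, no scaling factor, voom, a fit that was not robust, filterByExpr, no replicate block and the joint fit with 0.1% ACT. It was 3 with the likelihood ratio test and 2 with DESeq2. Leaving out 1 litter at a time gave 0 to 4. Without the replicate block the smallest adjusted p was 0.0691, and without both the block and the 0.01% ACT mouse of litter 1 the count was 3 (Olfr923, Olfr983 and Olfr901, without Olfr1377). Deviations of littermates from their group means had a median correlation of -0.019, against 0.010 between mice of different litters. With all 3 litters the block changed no call, but the smallest adjusted p with it was 0.576 (edgeR quasi-likelihood). Among settings chosen after seeing the data, the likelihood ratio test gave 2 without a scaling factor and 4 without litter 1, DESeq2 without litter 1 gave 3 (again without Olfr1377), and the joint fit gave 3 without the 0.01% ACT mouse of litter 1 and 0 without litter 1. For 0.1% against 0.01% ACT, DESeq2 called 1 lower and the likelihood ratio test without litter 1 called 1 higher and 1 lower. Without a scaling factor the median log2 fold change of all ORs was -0.189, against 0.020, so values there are lower throughout.

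Of 570 values (44 named ORs with a count, 13 settings, fewer where a filter removed an OR), 518 kept direction and side of the threshold, 12 passed it and 40 changed sign; where none is stated the cause was not tested. Without the block and the 0.01% ACT mouse of litter 1 the log2 fold changes were -0.33 (Olfr30), -0.22 (Olfr376), -0.57 (Olfr898), -0.53 (Olfr907), -0.16 (Olfr160), -0.49 (Olfr506), -0.32 (Olfr201), -0.23 (Olfr1101), -0.40 (Olfr881), -0.26 (Olfr1054), -0.02 (Olfr250), -0.38 (Olfr1477), 0.10 (Olfr1283), 0.28 (Olfr716) and 0.42 (Olfr479). Voom gave 0.09 (Olfr479) and 0.01 (Olfr536), no replicate block 0.03 (Olfr479), and no scaling factor -0.19 (Olfr15) and -0.07 (Olfr743). Leaving out 1 litter gave ranges of -0.27 to 1.08 (Olfr30), -0.22 to 1.79 (Olfr376), -0.94 to 3.71 (Olfr907), -0.28 to 2.01 (Olfr160), -0.54 to 2.27 (Olfr506), -0.66 to 1.75 (Olfr201), -0.44 to 1.78 (Olfr1101), -0.20 to 2.54 (Olfr881), -0.38 to 1.96 (Olfr1054), -0.06 to 2.12 (Olfr250), -0.46 to 1.64 (Olfr1477), -1.14 to 0.09 (Olfr362), -0.93 to 0.23 (Olfr1283), -0.74 to 0.31 (Olfr716), -0.85 to 0.42 (Olfr479), -0.31 to 0.05 (Olfr536), -0.06 to 0.20 (Olfr15) and -0.13 to 0.36 (Olfr743). Depth limits ORs of few counts most, and 19 ORs had none.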
